A study of Arabidopsis thaliana with 27 samples.

Results

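Stamens of the Arabidopsis thaliana mutant opr3, harvested 22 h after treatment with jasmonate (JA) or with its precursor 12-oxophytodienoic acid (OPDA), were compared directly. The comparison took the 3 JA arrays and the 3 OPDA arrays of this time, 6 of the 27 arrays in the series, with all probe sets of the ATH1 array. Per the labels, stage 12 buds received 0.03% methyl jasmonate, given as JA in the sample titles, or 0.03% OPDA, and the stamens were frozen after harvest. Both groups carried the opr3 mutation in the Ws background and were grown on soil under continuous light, so by their labels they differed in the compound and not in genotype or time, and they form 1 pair of related compounds at 1 matched percentage and time. Equal percentages are not equal molar doses, and molar doses are not given in the labels. Other arrays used here are those after JA or OPDA at 0.5 and 2 h, which enter the fit and the plot of time courses, JA at 8 h (3 arrays), OPDA at 8 h (2 arrays), untreated opr3 stamens (3 arrays) and untreated wild-type Ws stamens (1 array). The labels list no mock treatment and do not say that replicates came from separate plants, so the p-values below speak of the spread between these arrays, which may be technical only.

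Jasmonate is an oxylipin hormone made from the fatty acid linolenic acid. OPDA is formed in the plastid and is reduced by OPR3 in the peroxisome, where its side chain is then shortened by beta-oxidation. OPDA has a cyclopentenone ring and a long carboxylic acid side chain, whereas methyl jasmonate has a cyclopentanone ring, a shorter side chain and a methyl ester. The amino acid conjugate jasmonoyl-isoleucine is the ligand of the receptor COI1, which leads to the removal of JAZ repressors. In stamens, jasmonate is known for filament elongation, anther opening and the production of viable pollen, and opr3 plants are male sterile unless jasmonate is supplied. OPDA is known to act on some genes, many of them of the response to reactive electrophiles, without conversion to jasmonate.

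Transcript levels were read as MAS5 signal, a linear intensity that the authors scaled to the same trimmed mean on every array. Differences were computed on log2(signal + 16), which understates the change of dim genes, for the 14028 probe sets that reached a signal of 50 on 2 arrays or more. They are given as JA minus OPDA, so a positive value means a higher signal after JA. The test was limma's, two-sided, in a fit over all 9 opr3 groups, and a probe set whose adjusted p fell under 0.05 (Benjamini-Hochberg over all tested probe sets) is said to be called. Each JA array shared its scan day and chip lot with the OPDA array of the same replicate number. The main fit held no term for these pairs and called 2624 probe sets, while a fit with the replicate number as a block called 3442. Means are followed by the SD over 3 arrays of a group unless another n is given. No tested probe set was paired with OPR3, so the genotype was not checked from the signals, nor were the stamen identity genes AP3, PI and AG, which are not analysed here. In whole stamens, fewer cells of a type and less RNA per cell cannot be told apart.

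JA and OPDA left the stamens with different transcript levels for 2624 of 14028 probe sets (18.7%). After JA, 912 (6.5%) were higher and 1712 (12.2%) were lower than after OPDA. The higher ones differed more: their median difference was 1.02, against -0.71 among the lower ones and -0.075 over all tested probe sets. A difference of at least 2-fold was reached by 883 of the called probe sets (6.29% of those tested), 466 higher and 417 lower, and at least 8-fold by 81 of the higher and 1 of the lower. In all 3 pairs of arrays, 2616 of the 2624 differed in the called direction, and in 2498 the JA and OPDA arrays did not overlap. Non-overlapping arrays were found for 10% of all tested probe sets with JA higher and for 20.5% with JA lower. Within the pairs of replicates 1, 2 and 3, the median difference of the higher probe sets was 1.11, 1.13 and 0.86, and that of the lower ones was -0.74, -0.79 and -0.6. The share of higher calls, 34.8%, was 44.9% (1076 higher and 1320 lower) under scaling to the 75th percentile. Without OPDA replicate 1, 1116 probe sets were called lower.

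**Figure D1:**
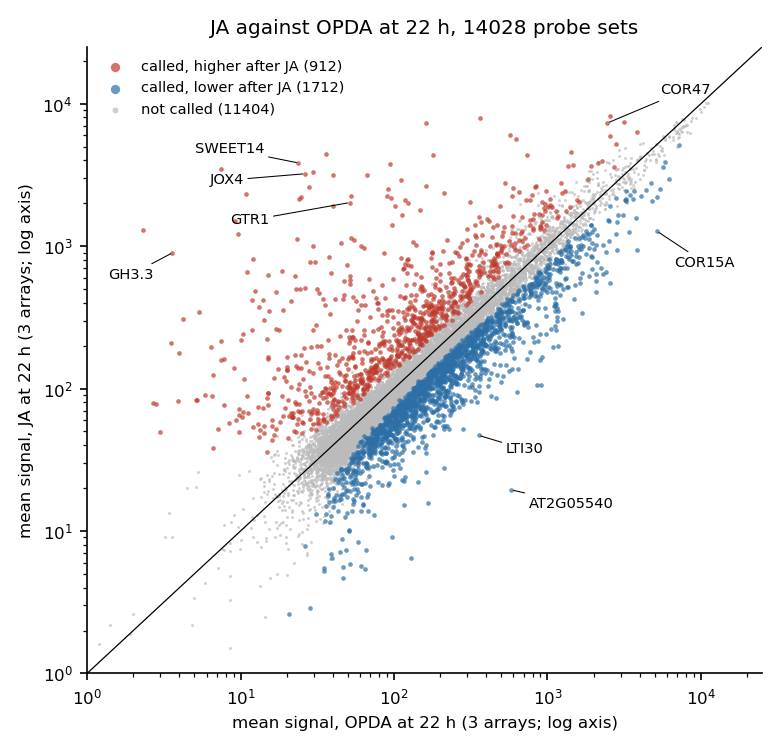
Mean signal at 22 h after JA (vertical) against OPDA (horizontal) for 14028 probe sets, 3 arrays per mean, both axes logarithmic, with the line of equality. The 912 probe sets called higher spread far above the line at low OPDA signals, while the 1712 called lower stay close below it, apart from a few such as AT2G05540.

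For most probe sets the difference was bounded but not shown to be absent. The 95% interval of the difference lay within -1 and 1 for 11321 of 14028 probe sets (80.7%), and within -0.5 and 0.5 for 4281 (30.5%). Its median reach to either side was 0.372. This is the precision of 3 arrays against 3 with the spread estimated over all 25 arrays of the fit.

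Among the largest rises over OPDA were genes for sugar, auxin, jasmonate and glucosinolate handling, whose signals were near or under the filter limit of 50 after OPDA. SWEET14 (AT4G25010), a sugar transporter of the plasma membrane that also carries gibberellin and acts with SWEET13 in anther opening, had signals of 3957, 4714 and 2835 on the JA arrays, against 46.4, 10.9 and 14.2 on the OPDA arrays. All JA arrays lay far above all OPDA arrays, a 161-fold ratio of mean signals and a difference of 6.67 (SE 0.38, limma adjusted p = 1.3e-11). Arrays that do not overlap were a condition for naming this gene and the other largest rises. JOX4 (AT2G38240), an oxygenase that hydroxylates and so inactivates jasmonic acid, had 2975, 4187 and 2497 after JA, against 45, 9.7 and 23.9 after OPDA. Its difference was 6.32 (SE 0.32, limma adjusted p = 1.9e-12). GH3.3 (AT2G23170), an enzyme that joins auxin to amino acids, had 867, 1249 and 576 after JA, against 7.2, 1.5 and 2.1 after OPDA, a difference of 5.49 (limma adjusted p = 2.4e-11). The groups of arrays were likewise apart for GTR1 (AT3G47960), an importer of glucosinolates that also carries jasmonoyl-isoleucine and gibberellin and is needed for normal stamens. GTR1 had 2069.5, 2472 and 1522 after JA, against 57.2, 49.4 and 47.4 after OPDA, a difference of 4.89 (95% interval 4.57 to 5.21, limma adjusted p = 8.2e-16). Signals under 50 carry no detection call here, and the size of such differences follows the pseudocount: that of SWEET14 was 7.52 with a pseudocount of 1 and 5.46 with 64, and that of GH3.3 was 7.74 and 3.77.

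The other 8 of the 12 largest rises were in genes that the files name by locus alone. AT4G24380 had 8485, 9282 and 5911 after JA, against 480.4, 369 and 242 after OPDA. AT3G43960 had 3037, 3391 and 2348 after JA, against 109.5, 89.3 and 133 after OPDA, and AT5G65380 had 2663, 2335 and 1769.5, against 98, 96.7 and 77. No array of one group reached the other group in these genes, which was a condition for naming them. AT1G76240 (4.90), AT1G21010 (4.49), AT3G52740 (4.32), AT2G27830 (4.26) and AT5G66550 (4.16) differed by similar amounts on the log2 scale, with limma adjusted p of 1.7e-09 or lower. In all, 127 of the 912 higher probe sets had a mean of at least 100 after JA and under 50 after OPDA, and 50 of the 1712 lower ones had the opposite pattern. The share of these patterns over all tested probe sets was not counted. The filter counted the compared arrays as well, so a gene dim elsewhere was tested only through the group where it was high. SWEET14 was such a gene: on the arrays of the fit outside JA at 22 h, its highest signal was 49.6. GH3.3, AT1G21010, GH9B11, TPS24 (AT3G25810) and CML23 were also dim elsewhere. Their means in the other groups of the fit were at most 25.03, 31.2, 13.07, 19.87 and 39.33. The tests of such genes carry this selection, and further genes of this kind were not counted.

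**Figure D2:**
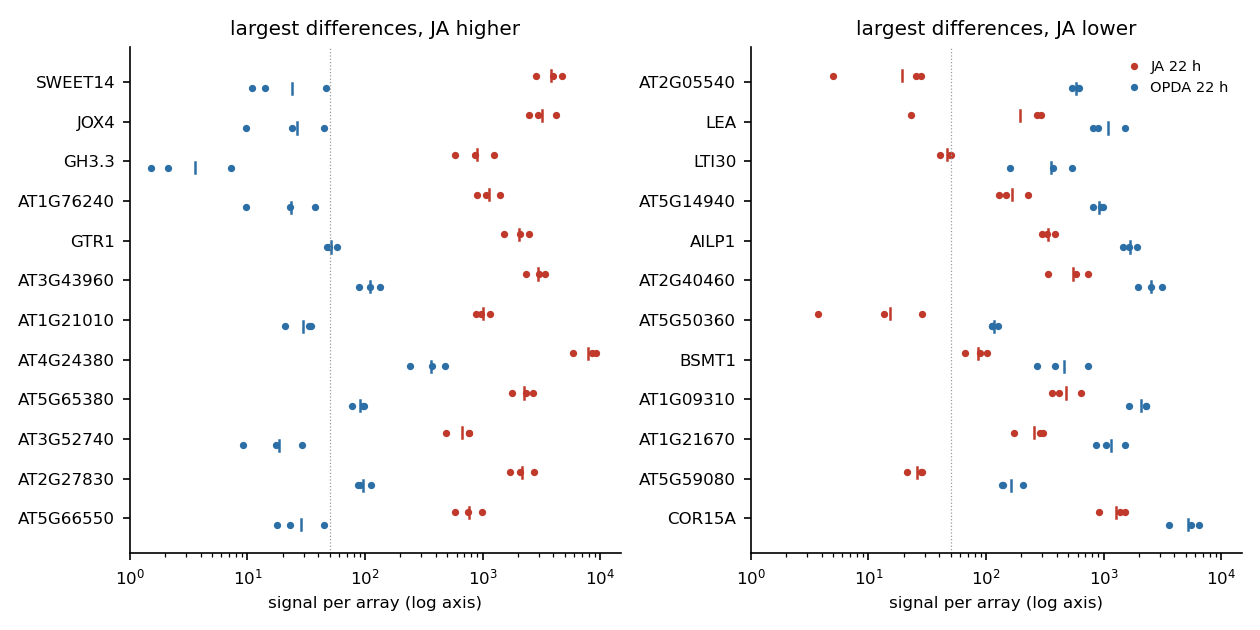
Signal on each of the 3 JA and 3 OPDA arrays at 22 h (log axis) for the 12 genes with the largest positive (left) and negative (right) differences; short bars are means and the dotted line is a signal of 50. JA and OPDA arrays do not overlap in any of these 24 genes, which was a condition for naming them.

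Sugar transporters of the SWEET family differed in both directions. Of 13 tested SWEET genes, 6 were higher and 2 lower after JA, where 6.5% of all tested probe sets were higher and 12.2% lower, with a median difference of 0.06, against -0.075 over all tested probe sets. SWEET13 (AT5G50800), which acts with SWEET14 in anthers, had 1701, 2555 and 1793 after JA, against 144, 111 and 114 after OPDA, a difference of 3.85 (limma adjusted p = 1.1e-12). SWEET9, the sucrose exporter of nectaries, had 55.1, 209 and 390.5 after JA, against 47.7, 44.6 and 18.7 after OPDA. The SWEET9 arrays did not overlap, but the JA arrays were spread over a wide range (difference 1.87, 95% interval 1.06 to 2.67, limma adjusted p = 0.0012). SWEET4, SWEET7 and SWEET10 were higher by 0.98, 1.03 and 0.51 (limma adjusted p = 0.0062, 0.023 and 0.006). SWEET7 lost its call without JA replicate 1 or 2 or OPDA replicate 3 (difference 0.76 to 1.03, adjusted p = 0.066 to 0.13). SWEET11, an exporter of sucrose for phloem loading, was lower, with 312, 255 and 282 after JA, against 555, 469 and 443 after OPDA (difference -0.75, limma adjusted p = 0.00043). SWEET3 was also lower, at 290.5 ± 122 after JA, against 636 ± 135 after OPDA (limma adjusted p = 0.0016).

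The other 5 tested members were not called. SWEET1, a glucose transporter, stood at 844 ± 159 after JA, against 806 ± 111 after OPDA (95% interval -0.26 to 0.38 of the difference), and SWEET8, needed for the pollen wall, at 122 ± 19.4 after JA, against 129 ± 32.9 after OPDA, while untreated stamens had 584 ± 249. A pair of SWEET genes carry other names in the files and were counted in other lists. AtVEX1, the SWEET gene of the vegetative pollen cell, had 1149, 747 and 904 after JA, against 3254, 2897 and 2348 after OPDA, a difference of -1.59 (limma adjusted p = 3.5e-06). SAG29, a SWEET gene known from senescence, was lower (difference -1.24, limma adjusted p = 0.0097), a call lost without JA replicate 1 (difference -1.09, adjusted p just above 0.05). Among carriers of the vacuolar membrane, TMT1 was higher (difference 0.73, limma adjusted p = 0.018), while TMT2 (-1.15, 6.9e-06) and TMT3 (-0.95, 0.0011) were lower. TMT1 lost its call without JA replicate 2 or 3 or OPDA replicate 1 (difference 0.54 to 0.67, adjusted p = 0.062 to 0.13).

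Genes of jasmonate metabolism differed in a few members. Of 3 tested genes of jasmonate inactivation, JOX4 and JOX2 were higher, where 6.5% of all tested probe sets were higher. JOX2 (AT5G05600) had 432, 326 and 307 after JA, against 80.2, 106 and 104 after OPDA, with no overlap (difference 1.71, 95% interval 1.14 to 2.28, limma adjusted p = 7.9e-05). The third oxygenase, JRG21, was dim in both groups, at 17 ± 5.7 and 16.2 ± 3.0 (95% interval -0.53 to 0.57 of the difference). Among 4 tested genes of jasmonate synthesis, JMT was higher. JMT methylates jasmonic acid and had 696, 652 and 387 after JA, against 85.3, 28.2 and 42.4 after OPDA, a difference of 3.17 (limma adjusted p = 7.7e-07). The JA arrays lay above, and 2 of the 3 OPDA arrays below, all arrays of untreated stamens, which had 163, 208 and 74.2. Set against these shared untreated arrays, JMT differed by 1.91 after JA (limma adjusted p = 0.00022) and -1.26 after OPDA (limma adjusted p = 0.026). OPCL1, a CoA ligase of the beta-oxidation of OPDA, stood at 51.7 ± 8.3 after JA and 68.0 ± 18.1 after OPDA (difference -0.30, 95% interval -0.68 to 0.08). ORA47, a transcription factor of jasmonate synthesis, stood at 16.6 ± 9.9 and 32.1 ± 13.8 (95% interval -1.24 to 0.10), and AIM1, a beta-oxidation enzyme, at 981 ± 110.1 and 851 ± 123 (95% interval -0.03 to 0.44). The transcription factor MYC3, the 1 tested gene of jasmonate signalling, had a difference of -0.18 (95% interval -0.55 to 0.19).

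None of the 3 tested genes on the list of jasmonate response markers was called by limma, with a median difference of 0.71. VSP2 and LOX2 were not among those tested. The thionin gene THI2.1 stood at 1438 ± 583 after JA, against 827 ± 359 after OPDA and 387 ± 46.9 in untreated stamens, a difference between the compounds of 0.82 (95% interval 0.08 to 1.57, limma adjusted p = 0.12). The lectin gene JAL23 stood at 563 ± 136 after JA and 338 ± 84.1 after OPDA (difference 0.71, limma adjusted p = 0.15, and just under 0.05 with the replicate number as a block). NAI1, a factor of endoplasmic reticulum bodies, was near 0 in both groups.

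Auxin genes beside GH3.3 differed by less. Of 5 tested auxin genes, from 16 on the array, 3 were higher and 1 lower after JA, with a median difference of 0.98. Over all tested probe sets, 6.5% were higher and 12.2% lower, with a median of -0.075. GH3.17, which joins auxin to glutamate, had 293, 128 and 292 after JA, against 86.4, 50.3 and 54.5 after OPDA (difference 1.61, limma adjusted p = 5e-05). YUC2, a flavin monooxygenase of auxin synthesis, stood at 89.8 ± 10.7 after JA, against 38.8 ± 15.2 after OPDA (difference 0.98, limma adjusted p = 0.0029). WES1, another GH3 enzyme, was lower by a small amount (difference -0.54, limma adjusted p = 0.037), a call lost without JA replicate 2 or OPDA replicate 1 or 2 or 3 (difference -0.57 to -0.41, adjusted p = 0.055 to 0.2). IAA18, a repressor of auxin response, was also called lower with the replicate number as a block (difference -0.42, limma adjusted p = 0.076, and 0.04 with the block).

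Enzymes of the cell wall differed mainly in single members. ADPG1 (AT3G57510), a polygalacturonase that dissolves pectin where anthers open, had 1816, 1539.8 and 1299 after JA, against 401, 457 and 344 after OPDA, a difference of 1.91 (95% interval 1.27 to 2.54, limma adjusted p = 8.3e-05). Untreated stamens had 98.7, 156 and 224, and ADPG1 differed from them by 3.21 after JA (limma adjusted p = 5.4e-08) and by 1.3 after OPDA (limma adjusted p = 0.012). Of 10 tested GH9 endoglucanases, which cut wall glucans, 3 were higher and 1 lower. Over all tested probe sets, 6.5% were higher and 12.2% lower. GH9B11 had 191, 534 and 403 after JA, against 4.8, 2.8 and 31.6 after OPDA (difference 3.77, limma adjusted p = 3.5e-07). GH9C2 was higher by 0.99 and GH9B13 by 0.70 (limma adjusted p = 0.00087 and 0.0078), and GH9B18 was lower (difference -0.91, limma adjusted p = 0.00039). GH9B13 lost its call without OPDA replicate 2 (difference 0.54, adjusted p = 0.053).

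Expansins, which loosen walls, were less clear. Of 12 tested, EXLA1 alone was called higher (difference 0.51, limma adjusted p = 0.02), and this call was lost without JA replicate 1 or 2 or OPDA replicate 2 or 3 (difference 0.40 to 0.47, adjusted p = 0.07 to 0.11). EXPB5 stood at 1971 ± 727 after JA, against 659.6 ± 396 after OPDA (difference 1.72, 95% interval 0.35 to 3.09, limma adjusted p = 0.075), and EXPA8 at 1532 ± 348, against 961 ± 182. With the replicate number as a block, 3 expansins were called, EXPB5 and EXPA8 included (limma adjusted p = 0.046 and 0.032). The 3 tested xyloglucan endotransglucosylases, XTH16, XTH29 and XTH32, had differences between -0.06 and 0.08, with no call. Of 15 tested pectin genes, 1 was higher and 2 lower, a share near the 18.7% over all tested probe sets. TBL38, of the family that acetylates wall polymers, had 619.6, 465 and 524 after JA, against 1233, 1232 and 1218 after OPDA (difference -1.18, limma adjusted p = 7.9e-08), and the pectin methylesterase PME61 was lower (difference -1.05, limma adjusted p = 6.3e-05). TBL39 was higher by 0.74 (limma adjusted p = 0.006), a call lost without JA replicate 2 (difference 0.56, adjusted p = 0.061). TBL18 was called lower with the replicate number as a block (difference -0.35, limma adjusted p = 0.12, and 0.033 with the block).

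Terpene synthases and glucosinolate transporters also differed. The floral terpene synthases TPS24 and TPS11, the 2 tested of their list, were both higher, where 6.5% of all tested probe sets were higher. TPS24 (AT3G25810) had 74.8, 248 and 337 after JA, against 8.6, 10.5 and 11.3 after OPDA (difference 2.96, limma adjusted p = 7.4e-06), and TPS11 (AT5G44630) had 425, 519.5 and 729, against 220.0, 162 and 332 (difference 1.2, limma adjusted p = 0.0074). JA replicate 1 was the lowest of the JA arrays in both genes. GTR2, the closest relative of GTR1 in function, went the other way, with 424, 206 and 388 after JA, against 691, 616 and 627 after OPDA and 152, 194 and 389 in untreated stamens. Its difference of -0.96 (limma adjusted p = 0.034) lost its call without JA replicate 2 or OPDA replicate 1 or 2 or 3 (difference -0.99 to -0.65, adjusted p = 0.058 to 0.23). Within the list of 7 glucosinolate genes, UGT74B1, a glucosyltransferase of glucosinolate synthesis, was lower too, with 53.1, 44 and 80.3 after JA, against 211, 204 and 156 after OPDA (difference -1.48, limma adjusted p = 1.5e-05). CML23, a calmodulin-like calcium sensor, had 397, 500.3 and 344 after JA, against 27.8, 12.2 and 23.5 after OPDA (difference 3.54, limma adjusted p = 5.1e-10), while CML42 was near equal (95% interval -0.30 to 0.48 of the difference).

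The largest falls below OPDA were led by AT2G05540, which had 25.2, 28.1 and 5.0 after JA, against 532, 599.8 and 612 after OPDA and 349, 270.1 and 676 in untreated stamens (difference -4.15, SE 0.42, limma adjusted p = 1.5e-07). It was the 1 probe set more than 8-fold lower. BSMT1, which methylates benzoic and salicylic acid to volatile esters, had 66.2, 88 and 102 after JA, against 384, 737 and 269 after OPDA (difference -2.14, limma adjusted p = 3.2e-05). AILP1 had 385, 301 and 327 after JA, against 1922, 1640.0 and 1448 after OPDA (difference -2.25, limma adjusted p = 7.8e-09). In both genes the OPDA arrays overlapped the untreated arrays, which had 529.9, 633 and 283 for BSMT1 and 1368, 1676 and 1545 for AILP1. AT5G14940, AT2G40460, AT5G50360, AT1G09310, AT1G21670 and AT5G59080, named by locus alone, were lower as well (differences -2.38, -2.21, -2.16, -2.11, -2.09 and -2.07, limma adjusted p = 8e-06 or lower). For AT2G40460, JA arrays, at 739.8, 338 and 582, all lay below the untreated ones, at 938, 1718 and 1582, and OPDA arrays, at 3133, 2534 and 1969, all lay above them.

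Genes of abscisic acid and dehydration responses were mostly lower after JA. Of 9 tested, 6 were lower and 1 higher, where 12.2% of all tested probe sets were lower and 6.5% higher, and the median difference was -1.48, against -0.075 over all tested probe sets. The dehydrin LTI30 (AT3G50970), a protective protein of dry or cold cells, had 50.2, 40.6 and 49.8 after JA, against 539.6, 372 and 158 after OPDA (difference -2.42, limma adjusted p = 7.6e-06). The late embryogenesis abundant gene LEA (AT2G21490) had 294, 23 and 271 after JA, against 1529, 903 and 818 after OPDA (difference -2.80, limma adjusted p = 0.0011). JA replicate 2 was the lowest by far, and without it the difference of LEA was -1.83 (limma adjusted p = 0.0069). COR15A and COR15B, which protect chloroplast membranes in the cold, were lower too (differences -2.01 and -1.48, limma adjusted p = 4.4e-07 and 3.3e-05), COR15A with 1528, 912 and 1372 after JA, against 6402, 5526 and 3615 after OPDA. LEA18 had 177, 99.5 and 124 after JA, against 658, 568 and 461 after OPDA and 219.7, 402 and 422 in untreated stamens (difference -1.97, limma adjusted p = 1.2e-06). LEA4-5 was lower (difference -1.19, limma adjusted p = 0.032), a call lost without JA replicate 2 or OPDA replicate 1 or 3 (difference -1.13 to -0.97, adjusted p = 0.089 to 0.16).

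The dehydrin COR47 went against the other called members of this list. It had 7909, 8740.4 and 5292 after JA, against 2716, 2669 and 1984 after OPDA, with no overlap (difference 1.55, 95% interval 1.16 to 1.94, limma adjusted p = 1.9e-06). Untreated stamens had 1588, 2149.6 and 2000.5. HVA22C and COR27 were not called, with differences of -0.25 and 0.17.

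Aldehyde dehydrogenases were lower after JA or uncalled, and genes of the response to electrophiles differed in both directions. All 8 tested aldehyde dehydrogenases, which oxidise aldehydes, had negative differences, and 4 were called lower, against 12.2% of all tested probe sets, with a median of -0.42. ALDH11A3 had 251, 161 and 304 after JA, against 570.3, 503 and 613 after OPDA (difference -1.22, limma adjusted p = 9.9e-06), ALDH7B4 was lower (difference -0.75, limma adjusted p = 0.0015) as was ALDH10A9, a betaine aldehyde dehydrogenase (difference -0.55, limma adjusted p = 0.0012). ALDH10A8 was the weakest (difference -0.46, limma adjusted p = 0.045) and lost its call without JA replicate 1 or 2 or OPDA replicate 1 or 3 (difference -0.49 to -0.31, adjusted p = 0.071 to 0.27). Of 11 tested genes on the list of responses to OPDA and electrophiles, 3 were higher and 3 lower after JA, with a median of -0.26. Of 6 tested GSTU glutathione transferases, 2 were higher and 1 lower, with a median of 0.03. The shares over all tested probe sets were 6.5% higher and 12.2% lower, with a median of -0.075. GSTU18, of this family that conjugates electrophiles, had 566, 706 and 343 after JA, against 53.5, 50.5 and 51.6 after OPDA (difference 2.97, limma adjusted p = 7.6e-11). The OPDA arrays of GSTU18 were near the 56.4, 62.7 and 53.5 of untreated stamens. GSTU26 was higher as well (difference 1.23, limma adjusted p = 0.00055), as was the dim glutaredoxin gene GRX480 (difference 0.97, limma adjusted p = 0.011), a call lost without OPDA replicate 1 (difference 0.60, adjusted p = 0.11).

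The chloroplast reductase AOR, which acts on reactive carbonyls, was lower, with 84, 113 and 109 after JA, against 248, 258 and 204 after OPDA (difference -1.10, limma adjusted p = 0.00014). GSTU16 was lower (difference -1.0, limma adjusted p = 0.0037), and GSTU27 was called lower with the replicate number as a block (difference -0.55, limma adjusted p = 0.058, and 0.047 with the block). AER, an alkenal reductase, and UGT73B1 were not called (differences -0.04 and -0.26). Against untreated stamens, the OPDA arrays of GSTU16, ALDH7B4 and AOR had differences of 0.62, 0.40 and -0.08, with limma adjusted p of 0.092, 0.1 and 0.84. None of 3 tested heat shock genes was called, with differences between -0.57 and 0.02.

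Of 19 tested UDP-glycosyltransferases, which attach sugars to small molecules, 1 was higher and 3 lower, a share near the 18.7% over all tested probe sets. UGT85A3 had 598, 572 and 318 after JA, against 37.7, 35.8 and 20.6 after OPDA (difference 3.40, limma adjusted p = 1.5e-08). UGT84A3, which acts on hydroxycinnamic acids, had 215, 106 and 172 after JA, against 663, 562 and 579.6 after OPDA (difference -1.82, limma adjusted p = 1e-06). UGT87A2 was lower (difference -0.74, limma adjusted p = 0.021), a call lost without JA replicate 2 or OPDA replicate 3 (difference -0.56, adjusted p = 0.12 to 0.14). CHIL, a helper of flavonoid synthesis, was lower (difference -0.96, limma adjusted p = 0.004), the 1 call among 4 tested flavonoid genes. Of 22 cytochromes P450 of the list on the array, only 2 were tested, CYP71B6 and CYP71B28. Both were lower (differences -1.02 and -0.95, limma adjusted p = 0.00015 and 9.9e-06), where 12.2% of all tested probe sets were lower. Of 9 tested beta-glucosidases, 3 were lower, and over all tested probe sets 12.2% were lower. BGLU15 was lower (difference -1.08, limma adjusted p = 0.0017), as were BGLU41 (difference -1.10) and BGLU40 (difference -0.48). BGLU41 lost its call without JA replicate 2 or OPDA replicate 1 (difference -0.94 to -0.88, adjusted p = 0.05 to 0.062), and BGLU40 without JA replicate 2 or 3 or OPDA replicate 1 or 2 (difference -0.49 to -0.37, adjusted p = 0.064 to 0.12).

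Serine carboxypeptidase-like genes, whose products include acyltransferases, had 3 higher and 4 lower of 15 tested. Over all tested probe sets, 6.5% were higher and 12.2% lower. The member scpl35 had 2200.2, 1848 and 1683 after JA, against 91.2, 64.8 and 146 after OPDA (difference 4.09, limma adjusted p = 8.4e-10). SCPL34 had 144, 72.4 and 151 after JA, against 622, 539 and 379 after OPDA (difference -1.96, limma adjusted p = 1.8e-06), and scpl25 had 434, 454 and 481, against 1097, 1366 and 1181 (difference -1.38, limma adjusted p = 2.1e-06). In scpl25 the OPDA arrays also lay above the untreated arrays, at 516, 712 and 906. The gene scpl38 had 259, 695 and 344 after JA, against 18.1, 135 and 107 after OPDA (difference 2.27, 95% interval 1.16 to 3.37, limma adjusted p = 0.0037), and replicate 2 was highest in both groups. The calls of scpl40, scpl31 and scpl46 (differences 0.68, -0.59 and -0.57) were lost without JA replicate 2, at -0.53 for scpl31, -0.51 for scpl46 and 0.57 for scpl40, and that of scpl46 also without JA replicate 1 or 3 or OPDA replicate 1 or 2 (-0.63 to -0.54).

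Nuclear genes of photosynthesis were lower after JA in part. Of 11 tested, 6 were lower and none higher, where 12.2% of all tested probe sets were lower and 6.5% higher, and the median difference was -0.53, against -0.075 over all. LHCB4.3, an antenna protein of photosystem II, had 349, 297 and 369 after JA, against 618, 555 and 683 after OPDA (difference -0.84, limma adjusted p = 1e-05). RCA, the activase of the carbon-fixing enzyme Rubisco, had 662, 720.4 and 720.2 after JA, against 1146, 1208 and 1240.5 after OPDA (difference -0.76, limma adjusted p = 0.0021). The photosystem I genes PSAN and PSAE-1 were lower (differences -0.74 and -0.53, limma adjusted p = 0.0019 and 0.0038). The antenna gene LHCB4.2 was lower (difference -0.79, limma adjusted p = 0.0033) and so was the light-harvesting-like gene LIL3:2 (difference -0.59, limma adjusted p = 0.0013). PSBY went the other way without a call (difference 0.27, 95% interval -0.14 to 0.69). Photosystem genes encoded in the plastid itself gave no call among 20 tested (limma), but their arrays varied far more: psaB stood at 803 ± 904 after JA and 1055 ± 1225 after OPDA, with an interval from -3.01 to 2.36.

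Of 18 tested genes of pollen and pollen tubes, 1 was higher and 2 lower, a share near the 18.7% over all tested probe sets, with a median difference of 0.25. The summed signal of all 20 list members on the array, tested or not, was 10792 to 16166 on the JA arrays, 10820.1 to 16980.3 on the OPDA arrays and 8119 to 9137 on the untreated arrays, so the JA and OPDA arrays overlapped. PLIM2a, an actin-binding protein of pollen, stood at 3319.7 ± 1137 after JA and 2110.5 ± 1214 after OPDA, against 443 ± 298 in untreated stamens. Between the compounds the difference of PLIM2a was 0.75 (95% interval -0.50 to 2.0, limma adjusted p = 0.45). ANX1, a receptor kinase that keeps pollen tubes intact, stood at 352 ± 88.0 and 285 ± 95.5 (95% interval -0.38 to 1.01 of the difference). Its relative ANX2, at 484 ± 151 after JA and 230.5 ± 122 after OPDA, was called with the replicate number as a block (difference 1.12, limma adjusted p = 0.079, and 0.019 with the block). NET2D, which links actin to the membrane of pollen tubes, was higher by 0.64 (limma adjusted p = 0.038), a call lost without JA replicate 1 or 2 or OPDA replicate 1 or 3 (difference 0.54 to 0.63, adjusted p = 0.1 to 0.15).

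The lower pollen genes were AtVEX1, given above, and CHX19, an ion exchanger, with 413, 219 and 499 after JA, against 1385, 965 and 998 after OPDA (difference -1.58, limma adjusted p = 2e-05). CHX20, an exchanger known from guard cells, was lower too (difference -1.44, limma adjusted p = 0.00037). MGH3, a histone of sperm cells, stood at 665 ± 186 after JA and 685 ± 151 after OPDA (95% interval -0.50 to 0.39 of the difference). Of 8 RALF-like peptide genes, RALFL32 was higher by 0.59 (limma adjusted p = 0.032), a call lost without JA replicate 1 or 2 or OPDA replicate 1 or 2 (difference 0.52 to 0.60, adjusted p = 0.078 to 0.12). SETH3, known from pollen mutants, was higher by 0.87 (limma adjusted p = 0.018), a call lost without JA replicate 2 or OPDA replicate 1 or 3 (difference 0.60 to 0.84, adjusted p = 0.052 to 0.15). NET4B, an actin-binding protein of the vacuole, was lower, with 37.2, 25.5 and 57 after JA, against 110.4, 93.7 and 133 after OPDA (difference -1.23, limma adjusted p = 2.6e-05).

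Tubulins gave no call among 7 tested, with differences between 0.08 and 0.66, but 4 were called higher with the replicate number as a block: TUB9 (0.51, limma adjusted p = 0.056, and 0.03 with the block), TUB1 (0.42, 0.07 and 0.0083), TUA6 (0.29, 0.1 and 0.035) and TUA1 (0.66, 0.19 and 0.041). All 11 tested AGAMOUS-like factors, among them the pollen factors AGL65, AGL66 and AGL104, were uncalled by limma, with a median of 0.03. No member was called among 5 tested cell cycle genes (median 0.41), 5 subtilases (-0.09), 4 glutamate receptor-like genes (-0.14), 2 gibberellin genes (-0.12) and 14 ribosomal protein genes of the plastid (-0.06). The list matched by symbol as defensin-like also gave no call among 5, of which PDF1A and PDF1B are peptide deformylases. The tetraspanin TET3 was lower (difference -0.75, limma adjusted p = 0.0023), the 1 call among 9. Of 9 tested senescence genes, the autophagy gene ATG8H (0.91) and the transcription factor WRKY6 (1.02) were higher (limma adjusted p = 0.0011 and 0.0065), and the vacuolar protease BETA-VPE (-0.84, limma adjusted p = 0.0034) and SAG29 were lower. The shares over all tested probe sets were 6.5% higher and 12.2% lower. When single arrays were left out, 0 to 2 tubulins and 0 to 2 expansins were called higher.

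Markers of other floral tissues were mostly dim, and their part in the results was not tested. The 4 petal and sepal markers on the array did not reach the filter, with summed signals of 41.9 to 44.8 after JA and 35.3 to 61.9 after OPDA. The carpel factor SPT was lower after JA, at 63.6 ± 6.0, against 122 ± 28.8 after OPDA (difference -0.77, limma adjusted p = 0.0041), while the ovule gene INO was dim in both (41.1 ± 20 and 29.4 ± 7.0). ATA27, the 1 tested gene of tapetum and pollen coat, was near 0 in both groups, at 5.0 ± 5.7 after JA and 17.3 ± 15.9 after OPDA, against 454 ± 268 in untreated stamens. SPL, a factor of early anthers, was at 2.5 ± 0.8 and 14.4 ± 16.1, against 99.7 ± 34.2. MYB21, MYB24, MYB108, VSP2 and LOX2 were not analysed here, since no tested probe set was paired with them.

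**Figure D3:**
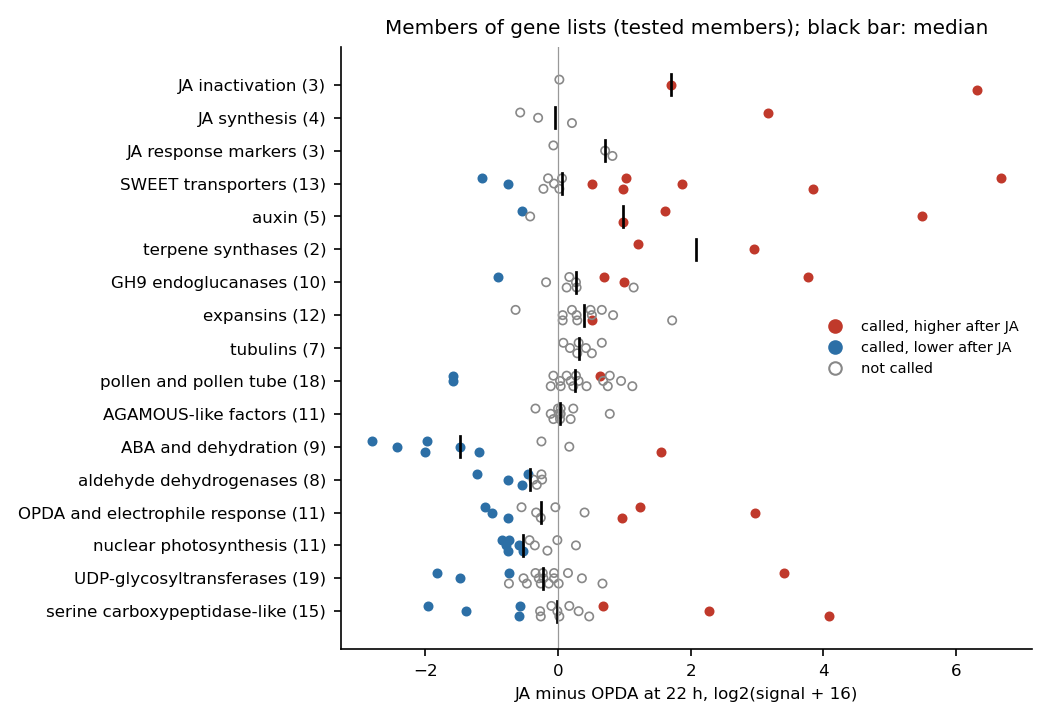
Difference between JA and OPDA at 22 h for each tested member of 17 gene lists (number tested in brackets), with called members filled and the median as a black bar. SWEET, auxin and jasmonate inactivation genes reach far to the right. Abscisic acid and dehydration genes lie to the left apart from COR47 and the uncalled COR27, and AGAMOUS-like factors and tubulins hold no called member.

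Some genes left the untreated level by similar amounts after both compounds. These were chosen for a 95% interval of JA minus OPDA within -0.5 and 0.5, so their near equality is a description. AT1G33360 stood at 513 ± 55.5 after JA and 505 ± 143 after OPDA, against 223 ± 31.5 in untreated stamens. AT5G10650 stood at 800.1 ± 95.9 and 815 ± 153, against 412 ± 89.4, and AT2G43550 at 804 ± 108 and 794 ± 172, against 448 ± 194. These genes were above untreated in both groups. PWD, a kinase that phosphorylates starch, stood at 69.1 ± 5.0 and 71.9 ± 29.5, against 137 ± 33.6 in untreated stamens. AT5G55970 stood at 59.6 ± 7.8 and 62.0 ± 3.4, against 122 ± 6.1, and AT1G09660 at 81.8 ± 16.4 and 78.1 ± 19.1, against 159.9 ± 42.2. These were below untreated in both groups, and the comparisons with untreated share the same 3 arrays and hold time since treatment as well.

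The difference between the compounds was not the same at 22 h and at 8 h. A test of the 22 h difference minus the 8 h difference called 752 of 14028 probe sets (5.36%), 320 (2.28%) positive and 432 (3.08%) negative (limma, adjusted p under 0.05), and 574 (4.09%) by at least 2-fold. Of the 912 probe sets higher at 22 h, 285 had a significantly more positive difference at 22 h, and of the 1712 lower ones 306 had a more negative one. Those lists were chosen by the 22 h difference, from arrays that also enter this test, which favours a change the same way. These counts are therefore a description. Of 520 probe sets called higher at 8 h, 224 were called higher at 22 h, which is 43.1% of the first and 24.6% of the second list. Of 576 called lower at 8 h, 373 were called lower at 22 h, which is 64.8% and 21.8%. At 22 h, 6.5% of all 14028 tested probe sets were called higher and 12.2% lower. At 8 h these calls were 520 and 576 of the 14028, and they rest on 2 OPDA arrays. The call turned in 39 probe sets that were higher at 8 h and lower at 22 h, and in 13 that were lower at 8 h and higher at 22 h. Without OPDA 8 h replicate 1, 1 of its 2 arrays, the test of the change called 409.

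Time courses fell into several shapes. SWEET14 had no more than a dim signal until 8 h after JA, at 9.5 ± 5.8, against 18.9 ± 15.1 after OPDA at 8 h (n = 3 and 2), where the difference was -0.41 (change of the difference 7.08, limma adjusted p = 2.2e-08). GTR1, SWEET13 and GH3.3 were alike, with differences of -0.28, -0.08 and 0.51 at 8 h and changes of 5.17, 3.93 and 4.97 by 22 h (limma adjusted p = 3.5e-12, 5.1e-09 and 5.5e-07). AT5G65380 differed at both times (4.40 at 22 h and 3.0 at 8 h). JOX2 showed the opposite course to JOX4: its difference was 1.71 at 22 h and 3.76 at 8 h (change -2.05, limma adjusted p = 0.003), while that of JOX4 was 6.32 and 1.80 (change 4.52, limma adjusted p = 2.2e-06). For JOX2, JA arrays averaged 355 ± 67.3 at 22 h and 862 ± 93.5 at 8 h, and OPDA arrays 96.9 ± 14.5 at 22 h and 49.3 ± 15.0 at 8 h (n = 2). GTR2 was higher after JA at 8 h (1.60, limma adjusted p = 0.0047) and lower at 22 h (-0.96), a call that single arrays could end, as given above. BSMT1 had 752 ± 49.0 after JA at 8 h, against 492 ± 74.2 after OPDA (n = 3 and 2), and its difference changed by -2.74 (limma adjusted p = 0.00077). LTI30 was apart by more at 8 h (-4.23) than at 22 h (-2.42; change 1.82, limma adjusted p = 0.026), and the difference of ADPG1 was 1.91 at 22 h and 2.68 at 8 h (change -0.78, limma adjusted p = 0.45).

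**Figure D4:**
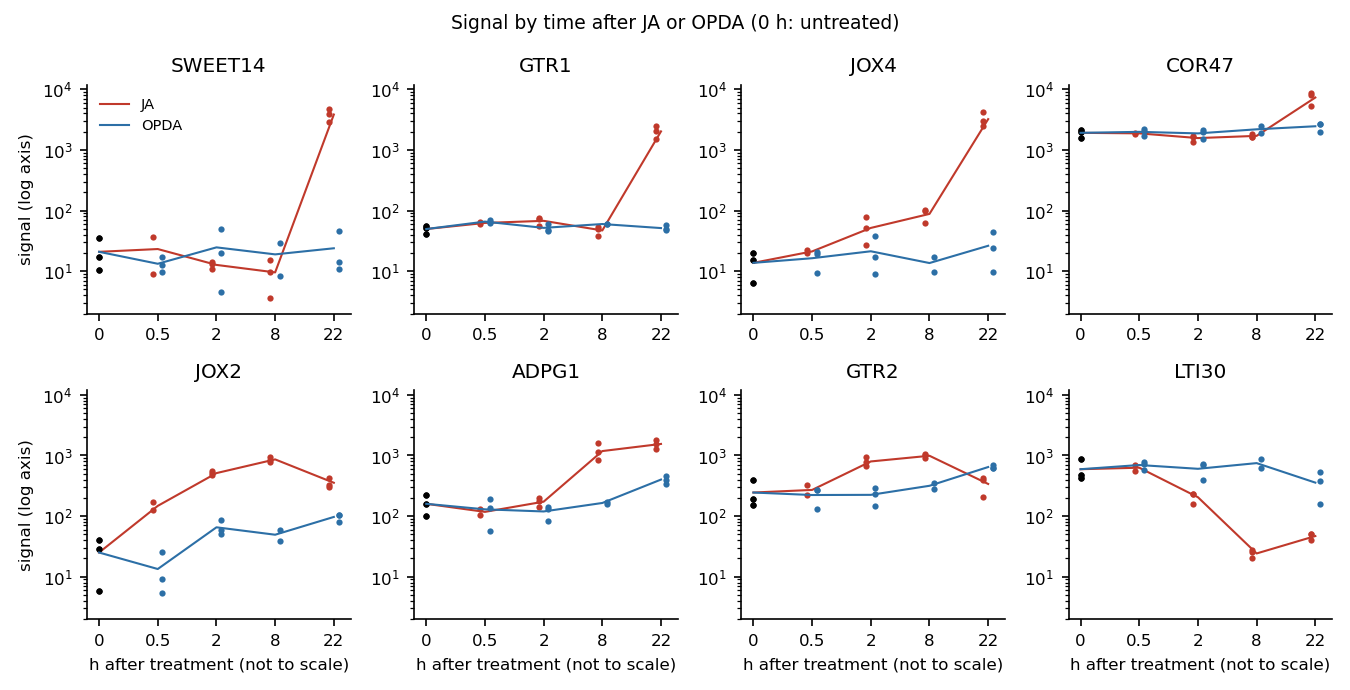
Signal on each array (log axis) by time after JA or OPDA for 8 genes, with 0 h the untreated arrays and lines through the means; times are evenly spaced. SWEET14 and GTR1 after JA leave the OPDA values between 8 and 22 h, JOX2 separates early and comes closer at 22 h, and GTR2 crosses over.

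**Figure D5:**
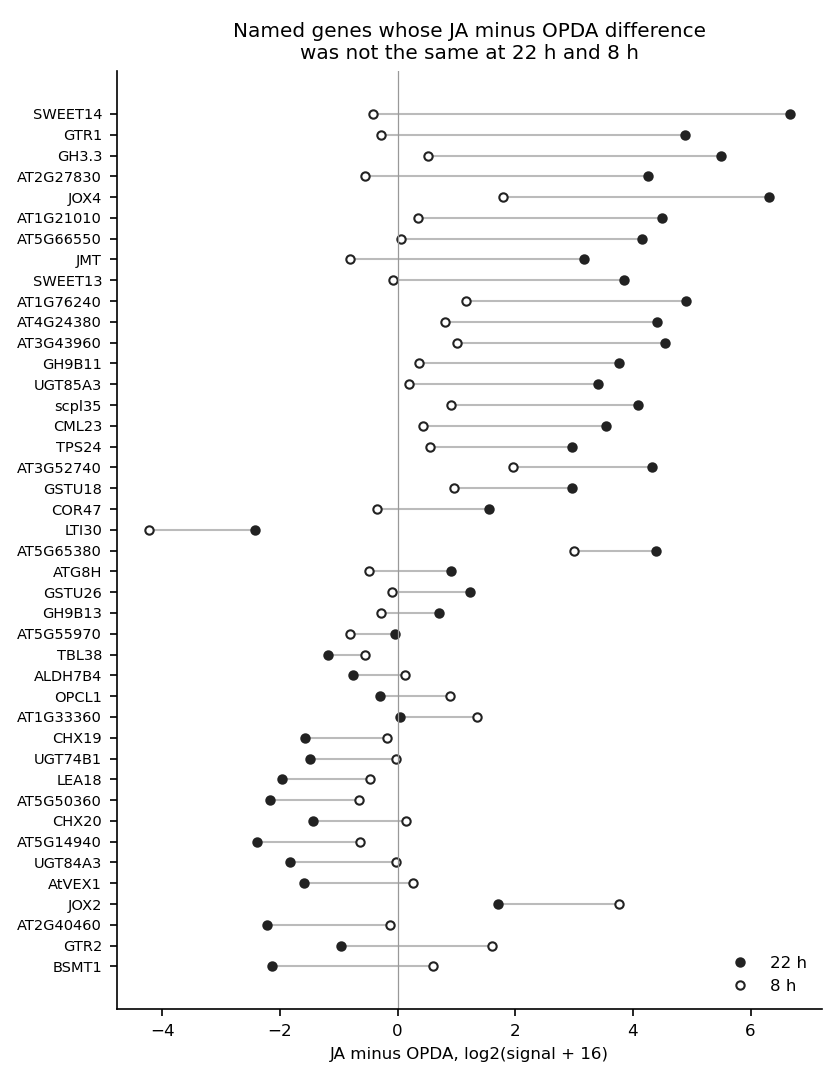
Difference between JA and OPDA at 22 h (filled) and 8 h (open) for the 42 named genes whose difference changed between these times (limma adjusted p under 0.05 for the change). Many of them were named for their difference at 22 h. SWEET14 moves by 7.08 and GTR1 by 5.17, while GTR2 and BSMT1 have negative differences at 22 h and positive ones at 8 h, and JOX2 moves to a smaller positive value.

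Wild-type stamens gave a comparison that uses none of the 6 arrays. The single untreated Ws array was set against the 3 untreated opr3 arrays, with no test, an approach added after the data were seen. Its signal was above all 3 of them in 747 of the 912 probe sets called higher after JA (81.9%), against 21.1% of all tested probe sets. It was below all 3 in 1281 of the 1712 called lower (74.8%), against 43.9% of all tested. Among those at least 2-fold higher, 435 of 466 (93.3%) were above, and among those at least 2-fold lower, 331 of 417 (79.4%) were below. SWEET14 stood at 1811 in Ws, JOX4 at 799, GTR1 at 695 and COR47 at 3990.0, against means of 20.8, 13.7, 49.5 and 1913 in untreated opr3 stamens. AT2G05540 stood at 44.8 in Ws and LTI30 at 175, against 432 and 594. BSMT1, at 545 in Ws, against 482 in untreated opr3 stamens, was an exception, being a gene lower after JA that was not lower in Ws.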

How the data were processed

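RNA from stamens was hybridised to 1-colour Affymetrix ATH1 arrays, 1 per sample. The deposited values are MAS5 signal intensity per probe set, with each array scaled by the authors to a target of 125, per the labels; software version and detection calls are not given in the sources used here. The trimmed mean was 125.01 on all 27 arrays and the median signal lay between 47.5 and 56.9. Samples were grouped by title, and replicate 3 of JA at 2 h, titled opr2, stayed in its group. Replicates 1 and 2 of JA at 0.5 h held identical values and were counted once, leaving 25 arrays in 9 groups.

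Values were taken as log2(signal + 16) and modelled in R 4.3.3 with limma 3.58.1, using lmFit and eBayes with an intensity trend (16 residual degrees of freedom). Probe sets under a signal of 50 on all but 1 array were left out. Intervals are 95% intervals of the same fit, which was tested on simulated data. The Ws array stayed outside the fit. Of 22810 probe sets, 13513 were paired with 1 gene by the platform annotation and 8794 with none, and 13436 of the first matched RefSeq (TAIR10.1).

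Named genes were the 12 largest called differences each way, where the annotation gives 1 gene, the JA and OPDA arrays are fully apart and the brighter group averages 100 or more; up to 4 called members of each list with the smallest adjusted p; 6 genes near equal after both compounds but away from untreated; and 15 genes named in every case. Other members of the lists are given where a count is made up. The members and lists were chosen with earlier results of these data known. Of several probe sets for 1 gene, that with the highest mean signal stands for it.

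Replicate numbers pair the samples: the labels give both groups numbers 1 to 3, same-numbered arrays share scan day and chip lot per the array records, and their deviations from the group means correlated at 0.294, 0.507 and 0.523. Each array was left out in turn. Other alternatives changed the pseudocount (1 or 64), the filter (none, or a mean of 100), the scaling (quantile, 75th percentile or median centring), the variance model (no trend, or weights per array), the block (replicate number, chip lot or scan day), the arrays fitted (those of the groups compared) or the call (2-fold or more). A fit to the compared groups alone with the replicate block, and differences within each scan day, were added after the data were seen. No sequences are printed.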

Additional observations from a re-analysis of the deposited data

Results flagged for a closer look

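The difference between JA and OPDA changed between 8 and 22 h in 752 probe sets (limma, adjusted p under 0.05 for the 22 h difference minus the 8 h difference), and 42 of the named genes were among them. These values are changes of a log2 difference, with 3 arrays per group at 22 h, 3 after JA at 8 h and 2 after OPDA at 8 h. Many of these genes were named for their 22 h difference, from arrays that also enter this test, which favours a change the same way.

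The change was positive, so that JA stood higher relative to OPDA at 22 h, for the transporters SWEET14 (7.08), GTR1 (5.17) and SWEET13 (3.93), the auxin-conjugating enzyme GH3.3 (4.97), JOX4 (AT2G38240, 4.52) and the methyltransferase JMT (3.98). It was positive for AT2G27830 (4.83), AT1G21010 (4.14), AT5G66550 (4.10), AT1G76240 (3.73), AT4G24380 (3.59), AT3G43960 (3.52), AT3G52740 (2.35), AT5G65380 (1.40) and AT5G55970 (0.75). Among enzymes it was positive for GH9B11 (3.41), UGT85A3 (3.21), scpl35 (3.18), TPS24 (AT3G25810, 2.42), GSTU18 (2.01), GSTU26 (1.33) and GH9B13 (0.98). The calcium sensor CML23 changed by 3.11, the autophagy gene ATG8H by 1.39, and the dehydrins COR47 by 1.90 and LTI30 by 1.82, the last as its negative difference became smaller.

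The change was negative for BSMT1 (-2.74), GTR2 (-2.56), AT2G40460 (-2.08), JOX2 (AT5G05600, -2.05), the SWEET gene AtVEX1 (-1.86), UGT84A3 (-1.79), AT5G14940 (-1.75), CHX20 (-1.59), LEA18 (-1.50), AT5G50360 (-1.50), UGT74B1 (-1.44) and CHX19 (-1.41). Smaller negative changes were those of AT1G33360 (-1.3), OPCL1 (-1.19), ALDH7B4 (-0.89) and TBL38 (-0.63). AT1G33360 and OPCL1 had differences of 1.35 and 0.90 at 8 h and 0.05 and -0.30 at 22 h. Without OPDA 8 h replicate 1, 409 probe sets were called in place of 752.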

How the results depend on the processing

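No named gene reversed under any alternative run, counting genes called in the reported or the alternative fit. Counts and list medians were not checked for reversal. List medians near 0 could change sign, as that of jasmonate synthesis, from -0.05 to 0.02 under scaling to the 75th percentile. Of 85 called named genes, 68 kept their call in all 20 alternative fits of JA against OPDA at 22 h and 17 lost it in at least 1, besides those under 2-fold when 2-fold was required. The 2624 calls became 1637 in a fit to the compared groups alone (966 of them lower, against 1712) and 883 where 2-fold was also required (466 higher and 417 lower). The 912 higher calls became 589 with a mean signal of at least 100 and 1379 in a fit to the compared groups alone with the replicate block. With the replicate block in the fit over all groups there were 3442 calls (1211 higher and 2231 lower). Leaving out 1 array of these groups gave 1806 (without JA replicate 2) to 2530 (without OPDA replicate 2) calls, 661 to 956 of them higher and 1116 (without OPDA replicate 1) to 1637 lower. The 752 calls of the change from 8 h became 424 with chip lot as a block, where OPDA 8 h replicate 1 was left out for want of a record, 574 where 2-fold was also required, and 409 to 782 without 1 array. The median over all tested probe sets, -0.075, was -0.023 after median centring, -0.009 when arrays were scaled to their 75th percentile, -0.037 after quantile normalization and -0.101 to -0.062 without 1 array. The share of higher calls was 39% after quantile normalization and 42.2% after median centring. The causes of these shifts were not tested, beyond fewer arrays or probe sets where an alternative has them. Beyond the calls given in the report, the replicate block changed those of UGT71C4, LHCB4.1 and ATG8B, all called lower with it, and no other call among the named genes and lists. GTR2 lost its call in 7 fits, ALDH10A8 in 11, WES1 in 8, NET2D in 7 and BGLU40 in 7. Signals near the low end carry no detection call, so their differences depend on the pseudocount.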
